A study of Mus musculus with 69 samples.

Results

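Genes linked to macrophage fusion, namely Cdh1, Dcstamp, Ocstamp, Atp6v0d2, Cd9, Trem2, Tyrobp and Acp5, were followed by RNA-seq in mouse bone marrow–derived macrophages (BMDMs) exposed to interleukin-4 (IL-4). They were chosen by symbol, with earlier results of these data known. All 8 were found among the 24537 genes listed for the strain comparison, as well as in the time-course, Egr2 knockout and F1 data. The cells were grown from the bone marrow of female mice aged 8 to 12 weeks with macrophage colony-stimulating factor (M-CSF) for 7 days, and were left untreated (basal) or given IL-4 at 20 ng/ml. In the strain comparison, BMDMs of the classical laboratory strains C57BL/6J (C57), BALB/cJ (BALB) and NOD/ShiLtJ (NOD) and of the wild-derived PWK/PhJ (PWK) and SPRET/EiJ (SPRET) strains were compared at basal and after 24 hours of IL-4, with 3 libraries in each group except PWK basal, which had 2. A separate time course covered C57 and SPRET BMDMs at basal and after 1, 6 and 24 hours, with 2 libraries in each group. The same times and numbers were used for Egr2 fl/fl BMDMs (Egr2WT), which carry floxed alleles of the transcription factor gene Egr2 without Cre, and LyzM-Cre Egr2 fl/fl BMDMs (Egr2MKO), in which Cre is driven by the lysozyme M promoter and deletes Egr2 in myeloid cells. BMDMs of C57xSPRET and C57xNOD F1 mice, with 2 libraries each at basal and after 24 hours of IL-4, gave separate values for the parental alleles.

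Fusion of macrophages into multinucleated giant cells is induced by IL-4, and shares much of its machinery with the fusion of osteoclast precursors in bone. Cdh1 encodes E-cadherin, a homophilic adhesion molecule. Dcstamp and Ocstamp encode the multipass membrane proteins DC-STAMP and OC-STAMP, which are needed for osteoclast fusion, and Atp6v0d2 encodes the d2 subunit of the vacuolar proton pump (V-ATPase), which also takes part in the fusion of these precursors. Cd9 encodes a tetraspanin of the plasma membrane. Trem2 encodes a lipid-sensing receptor that signals through the adaptor encoded by Tyrobp (DAP12), which carries an immunoreceptor tyrosine-based activation motif (ITAM). Acp5 encodes tartrate-resistant acid phosphatase, an enzyme abundant in osteoclasts.

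Levels are given as TPM, transcripts scaled to a common library total, which takes transcript length into account, and differences as log2(TPM + 1), a scale that understates the change of genes near or below 1 TPM. A gene is said to have risen or fallen when limma's adjusted p-value, corrected over all tested genes, was below 0.05, and to have been called when the difference was also over 2-fold on this scale. The 5-strain libraries held 7.02 to 22.5 M tags, those of the time course 5.70 to 24.0 M, and those of the Egr2 experiment 4.69 to 32.9 M. No libraries were identical. Of 8 macrophage markers, 7 or 8 reached 1 TPM in each group of these experiments, whereas no B cell, T cell or epithelial marker did in any group. Mast cell and basophil markers summed to 4.91 to 9.20 TPM in SPRET in the strain comparison and 10.8 to 22.2 TPM in its time course, with Mcpt8 the highest, against at most 4.08 TPM in any other library. Among the 5 strains, neutrophil markers summed to 15.2 to 601 TPM, with S100a8 the highest, and the sum was highest in PWK. S100a9 averaged 189 TPM at basal and 253 TPM after IL-4 in PWK, against at most 17.0 TPM in any other strain. Ltf and Ngp averaged 3.48 and 3.71 TPM in basal PWK, against at most 0.0733 and 0.296 TPM in any other strain. Camp averaged 11.8 TPM in basal PWK and 9.72 TPM in basal SPRET. Elane and Mpo averaged below 1 TPM in every group, and Ly6g was at most 0.276 TPM in any library. Fibroblast markers summed to 2.21 to 210 TPM, again highest in PWK. In bulk RNA, fewer cells expressing a gene and less RNA per cell cannot be told apart.

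After 24 hours of IL-4, Atp6v0d2 was called in all 5 strains and Cdh1 in 4, whereas Ocstamp was called in C57 and PWK only. Dcstamp, Cd9, Trem2, Tyrobp and Acp5 were called in none of the 5 strains, although several of them changed by less than 2-fold. In all, 11 of the 40 member-strain pairs were called, each of them higher with IL-4. For C57, 3 of the 8 genes were called, beside 2.28% of tested genes called higher, for BALB 2 of 8 beside 1.27%, for NOD 1 of 8 beside 0.731%, for PWK 3 of 8 beside 1.54%, and for SPRET 2 of 8 beside 2.32%. Over all tested genes, 4.43% were called higher and 3.39% lower in at least 1 strain. The median difference of the 8 genes on the log2 scale lay at 0.46 for C57, 0.25 for BALB, 0.36 for NOD, 0.47 for PWK and 0.52 for SPRET, against -0.04, -0.11, 0.12, 0.08 and 0.11 for all tested genes. All 8 genes passed the filter of 1 TPM in 2 libraries. Ocstamp did so only through 5 IL-4-treated libraries of C57 and PWK, so that it could hardly have entered the test without a difference.

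**Figure D1:**
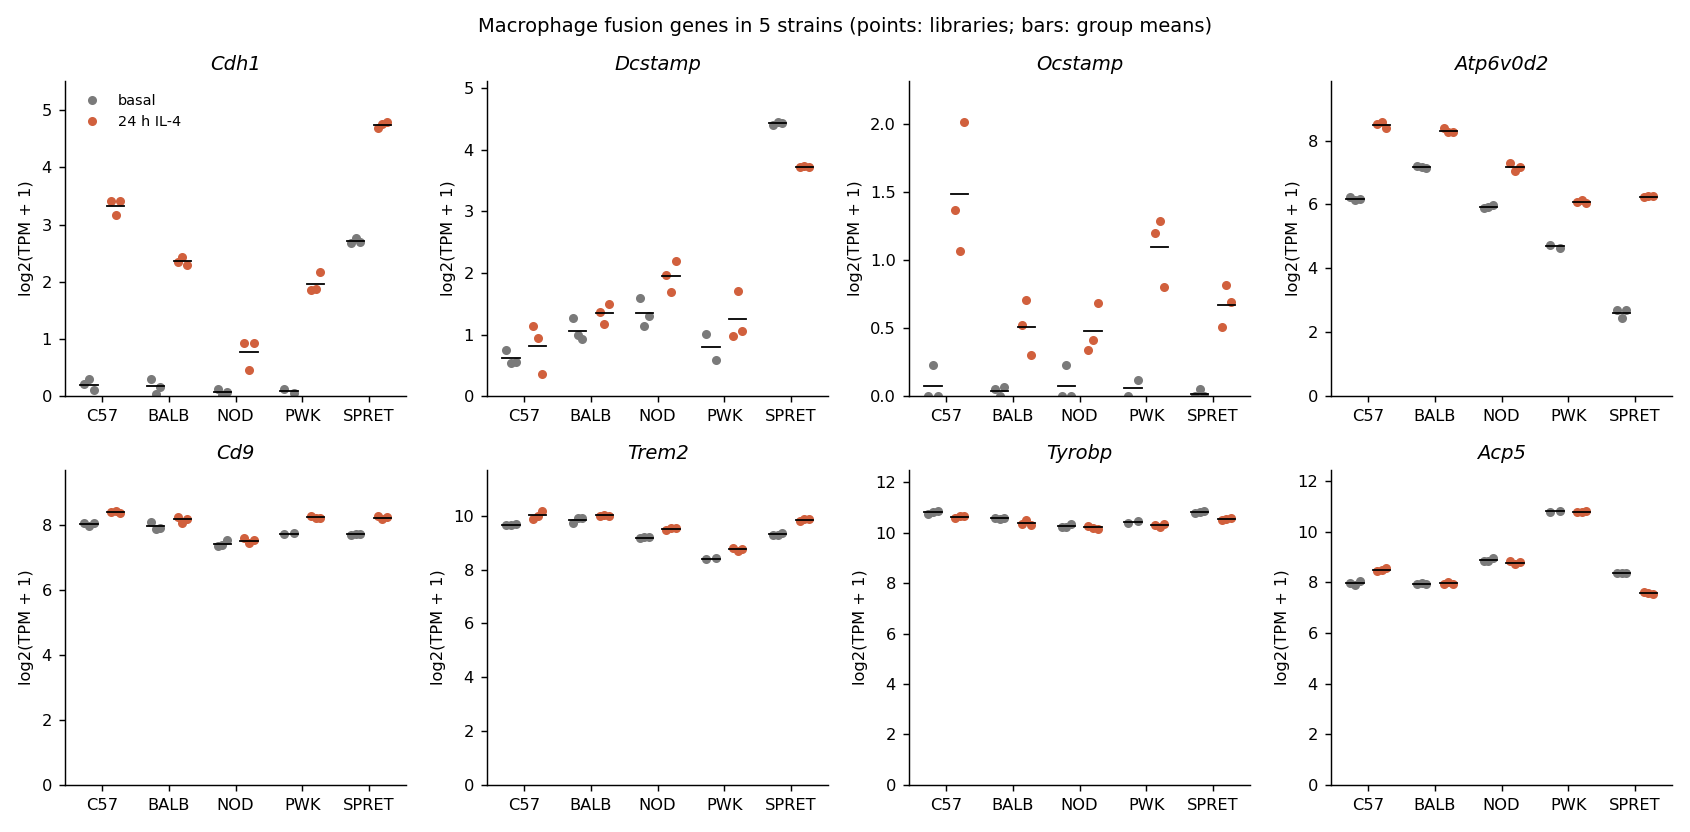
Levels of the 8 genes in 5 strains as log2(TPM + 1), with 1 point per library, grey at basal and orange after 24 h of IL-4, and bars at group means. Cdh1 and Dcstamp stood highest in SPRET, Acp5 in PWK, and Atp6v0d2 rose in every strain from basal means between 5.13 and 143 TPM.

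Cdh1 showed a low basal level in 4 strains and a much higher one in SPRET. The basal libraries read 0.159, 0.227 and 0.075 TPM in C57, 0.239, 0.030 and 0.124 in BALB, 0.096, 0.019 and 0.047 in NOD, and 0.095 and 0.037 in PWK. The SPRET basal libraries read 5.43, 5.78 and 5.49 TPM. After IL-4 the values were 9.70, 7.93 and 9.60 TPM in C57, 4.10, 4.42 and 3.93 in BALB, 0.912, 0.369 and 0.902 in NOD, 2.64, 2.68 and 3.49 in PWK, and 24.9, 26.1 and 26.7 in SPRET. Treated and basal libraries did not overlap in any strain, and every treated SPRET library lay above every treated library of the other strains. On the log2 scale C57 rose by 3.12 ± 0.11 (SE, adjusted p = 1.2e-17), BALB by 2.19 ± 0.11, SPRET by 2.03 ± 0.11 and PWK by 1.88 ± 0.12. In NOD it was 0.70 ± 0.11 (adjusted p = 2.8e-05), below 2-fold.

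The order of the strains in Cdh1 after IL-4 was SPRET, C57, BALB, PWK and NOD, and each neighbouring pair differed, the closest being BALB and PWK (adjusted p = 0.0033). At basal only SPRET stood apart, and the other 3 neighbouring pairs did not differ beyond their spread (adjusted p = 0.57 to 0.92). The basal level in SPRET was 36.2 times that in C57, a difference of 2.51 ± 0.11 on the log2 scale. Set against the response of C57, that of NOD was smaller (-2.43), as were those of PWK (-1.25) and SPRET (-1.09), all called. With a pseudocount of 0.1 the PWK difference had an adjusted p of 0.11. The SPRET value depends on the scale. By ratio of means Cdh1 rose 59.0-fold in C57 and 4.65-fold in SPRET, and with a pseudocount of 5 in place of 1 the difference became 0.10 in the other direction (adjusted p = 0.26).

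Atp6v0d2 was the only one of the 8 genes called in every strain. Basal levels spanned BALB (146, 144 and 139 TPM), C57 (74.1, 69.3 and 71.6), NOD (57.9, 59.1 and 61.8), PWK (25.4 and 24.1) and SPRET (5.48, 4.40 and 5.51). After IL-4 they read 335, 304 and 310 TPM in BALB, 367, 381 and 336 in C57, 155, 130 and 143 in NOD, 66.2, 69.6 and 64.4 in PWK, and 74.1, 75.3 and 76.0 in SPRET. No basal and treated libraries of a strain overlapped. In both states all 4 neighbouring pairs of strains differed, and SPRET moved from the lowest place at basal to above PWK after IL-4 (adjusted p = 0.023 for this pair). This last gap was 0.17 on the log2 scale, against a median of 0.22 over all tested genes for SPRET minus PWK. Basal C57 lay 0.26 above NOD, where the median over all tested genes for NOD minus C57 was -0.30. Neither gap therefore exceeds the shift of all tested genes. The rise was 3.64 ± 0.07 in SPRET, 2.32 ± 0.07 in C57, 1.39 ± 0.07 in PWK, 1.24 ± 0.07 in NOD and 1.14 ± 0.07 in BALB on the log2 scale. By ratio of means this was 14.7-fold in SPRET, 5.04-fold in C57 and 2.21-fold in BALB. Against C57, the response was larger by 1.32 in SPRET and smaller in BALB (-1.18) and NOD (-1.07), all 3 called. The PWK response was also smaller (-0.92, adjusted p = 1.4e-07), by less than 2-fold.

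Dcstamp and Ocstamp, the related fusion proteins, differed in level and response. Dcstamp read 20.0, 20.8 and 20.7 TPM in basal SPRET BMDMs, against means of 0.534 TPM in C57, 0.754 in PWK, 1.10 in BALB and 1.57 in NOD. The basal difference between SPRET and C57 was 3.81 ± 0.18 on the log2 scale (adjusted p = 1.6e-15), while the other 3 neighbouring pairs in the order NOD, BALB, PWK, C57 did not differ beyond their spread, although its ends, NOD and C57, did (0.73, adjusted p = 0.00097). After IL-4 the SPRET libraries read 12.1, 12.3 and 12.2 TPM, all below the basal ones, a change of -0.71 on the log2 scale (adjusted p = 0.003). NOD rose by 0.60 (basal 2.03, 1.20 and 1.47 TPM, treated 2.91, 2.23 and 3.55, adjusted p = 0.014). In C57, BALB and PWK the difference was 0.20, 0.28 and 0.45 with adjusted p of 0.43, 0.24 and 0.12, and the basal and treated libraries overlapped. The 95% interval of the difference in C57 ran from -0.18 to 0.58.

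Ocstamp was near 0 at basal, with 8 of its 29 values listed at 0 and no basal library above 0.173 TPM. After IL-4 it read 1.58, 1.09 and 3.04 TPM in C57, 1.29, 1.44 and 0.744 in PWK, 0.420, 0.762 and 0.616 in SPRET, 0.434, 0.636 and 0.236 in BALB, and 0.263, 0.334 and 0.604 in NOD. In every strain each treated library was above each basal one. The rise was 1.41 ± 0.17 in C57 (adjusted p = 1.9e-07) and 1.04 ± 0.19 in PWK (adjusted p = 0.00015), both called. It was 0.66 in SPRET (adjusted p = 0.0024) and 0.47 in BALB (adjusted p = 0.031), and NOD did not pass (0.40, adjusted p = 0.065). The treated level was higher in C57 than in PWK (adjusted p = 0.047) and in PWK than in SPRET (0.025), and no difference was detected between SPRET and BALB (0.39) or BALB and NOD (0.88). The PWK call rests on few libraries: the rise was 0.99, 0.94 and 0.98 without PWK IL-4 library 1, IL-4 library 2 and basal library 1, below the 2-fold limit.

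Cd9, Trem2 and Tyrobp, the surface receptors and adaptor, were abundant in every library and moved little. Cd9 was between 161 and 271 TPM at basal and between 172 and 346 TPM after IL-4. On the log2 scale it rose by 0.51 in SPRET, 0.50 in PWK, 0.38 in C57 and 0.21 in BALB, and NOD did not pass (0.11, adjusted p = 0.14). NOD held the lowest Cd9 in both states. At basal SPRET, the next strain, lay 0.30 above NOD, against a median of 0.33 over all tested genes. That basal gap therefore does not exceed the shift of all tested genes. Trem2 rose in all 5 strains, by 0.35, 0.15, 0.33, 0.35 and 0.54 in C57, BALB, NOD, PWK and SPRET. PWK had the lowest Trem2, at 331 and 342 TPM at basal and 444, 411 and 436 TPM after IL-4, and every library of the other strains was higher. Basal Trem2 was 2.41 times as high in C57 as in PWK (adjusted p = 2.9e-15).

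Tyrobp lay between 1146 and 1862 TPM over the 29 libraries. It fell after IL-4 in C57 (-0.17), BALB (-0.18) and SPRET (-0.27). The differences of -0.05 in NOD (adjusted p = 0.39) and -0.13 in PWK (adjusted p = 0.062) did not pass. Thus the receptor gene Trem2 and the adaptor gene Tyrobp moved in opposite directions in C57, BALB and SPRET, each by less than 2-fold.

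**Figure D2:**
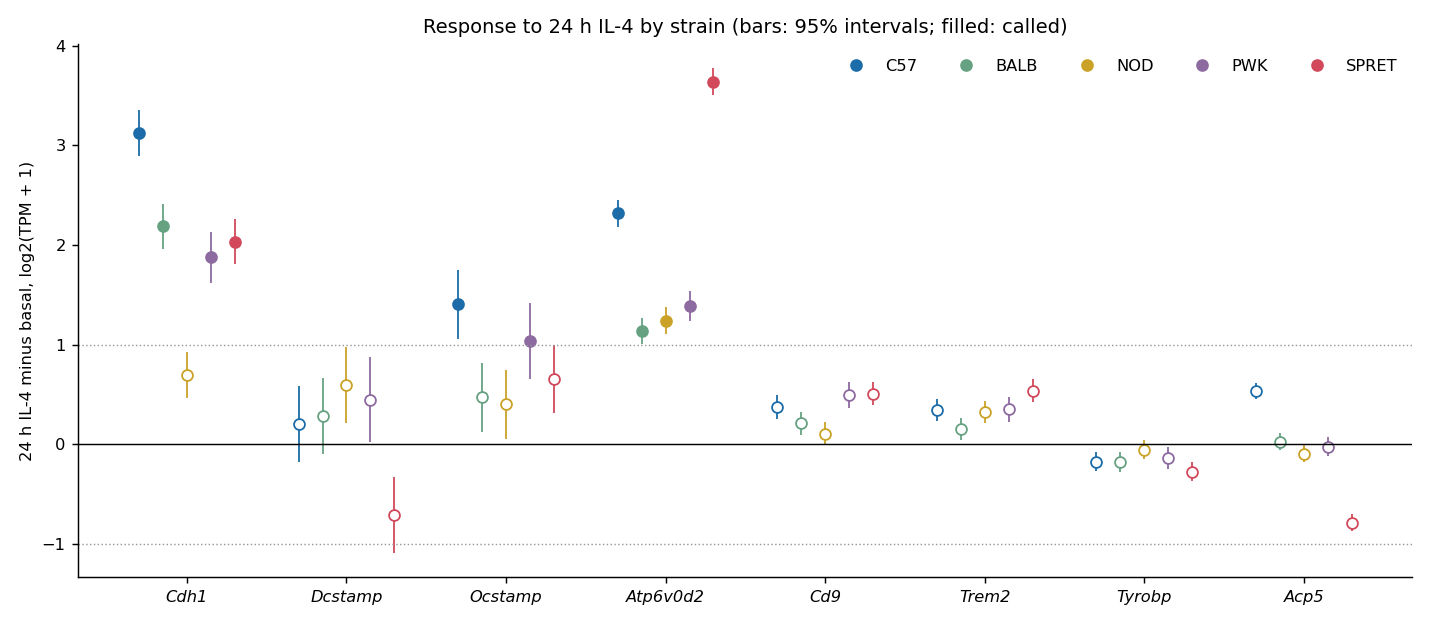
Difference between 24 h of IL-4 and basal on the log2(TPM + 1) scale for each gene and strain, with 95% intervals, where filled points were called and dotted lines mark 2-fold. All filled points lie above 1, and for Dcstamp and Acp5 SPRET lies below 0 (-0.71 and -0.79).

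Acp5 differed more between strains than with IL-4. PWK basal libraries read 1772 and 1821 TPM, and treated ones 1750, 1752 and 1802 TPM. Basal levels were 455, 462 and 496 TPM in NOD, 327, 335 and 331 in SPRET, 249, 239 and 262 in C57, and 245, 250 and 244 in BALB. PWK was therefore 7.17 times as high as C57 (2.84 ± 0.05 on the log2 scale, adjusted p = 1.3e-24), and no difference was detected between C57 and BALB (adjusted p = 0.68). After IL-4, Acp5 rose to 346, 361 and 384 TPM in C57 (0.54, adjusted p = 5.7e-11) and fell to 195, 192 and 188 TPM in SPRET (-0.79, adjusted p = 2.4e-14), with no overlap between states. The response in SPRET was lower than in C57 (-1.32), which was called. No change was detected in BALB (0.03, 95% interval -0.06 to 0.11), NOD (-0.09, adjusted p = 0.075) or PWK (-0.02, -0.12 to 0.07). The fibroblast marker Dcn was also highest in PWK, at 201 and 208 TPM at basal and 104 to 110 TPM after IL-4, against 2.08 to 16.6 TPM in the other strains over both states, and so was Pdgfra, at 1.37 to 2.33 TPM in PWK libraries and at most 0.448 TPM in any other strain, while Col1a1 did not exceed 0.028 TPM in PWK and Col3a1 was listed at 0 in all 5 PWK libraries. Of the osteoclast marker list, Ctsk averaged 112 TPM in basal PWK, against 844 in SPRET, 717 in BALB, 394 in C57 and 5.09 in NOD. Itgb3 averaged 11.5 TPM in basal PWK, between 4.05 in SPRET and 22.6 in BALB, and 20.2 after IL-4. Car2 averaged 1.21 TPM in basal PWK, between 0.366 in SPRET and 1.67 in NOD, and 13.5 after IL-4. Calcr and Oscar did not exceed 0.52 TPM in any PWK library. The part of other cell types in the PWK level of Acp5 was not tested.

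RefSeq lists more than 1 start for Acp5 (GRCm38.p6, minus strand of chromosome 9), and the deposited tables counted different models. In the strain and time-course data the gene ran from 22126727 to 22131865 with 1400 counted bases, and in the Egr2 data from 22126727 to 22130598 with 1347. Levels of Acp5 in these tables are therefore not on one scale. The 250 bases before each of these starts are printed to show that the start used for the Egr2 data, and not the other, holds matches to motifs searched on both strands. These were the STAT6 palindrome (TTC and GAA with 4 bases of any kind between them), the EGR motif GCGTGGG, the AP-1 motif TGANTCA, the PU.1 core GGAAGT and the MITF E-box CATGTG, which were present in 5.85%, 4.30%, 6.75%, 19.7% and 12.3% of 32851 listed windows of the same length. Capitals mark the matches.
Acp5, 250 bases before the start at 22130598 (chr9:22130599-22130848): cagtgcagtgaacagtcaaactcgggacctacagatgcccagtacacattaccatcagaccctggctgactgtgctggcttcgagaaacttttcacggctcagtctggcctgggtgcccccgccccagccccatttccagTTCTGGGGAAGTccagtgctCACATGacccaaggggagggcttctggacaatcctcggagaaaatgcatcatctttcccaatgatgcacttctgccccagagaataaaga
Acp5, 250 bases before the start at 22131865 (chr9:22131866-22132115): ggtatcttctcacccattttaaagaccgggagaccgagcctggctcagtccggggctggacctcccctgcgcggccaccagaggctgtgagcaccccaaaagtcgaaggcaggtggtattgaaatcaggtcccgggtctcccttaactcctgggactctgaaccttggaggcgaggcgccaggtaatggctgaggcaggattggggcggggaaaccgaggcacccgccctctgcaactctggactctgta
In the first, the STAT6 palindrome began 110 bases and GGAAGT 104 bases before the start, overlapping each other, and CATGTG, on the other strand, began 90 bases before it. The second held no match to the 5 motifs. The sequence is that of the C57 reference, so that it says nothing of the PWK or SPRET alleles.

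At basal, 6 of the 32 member-strain pairs were called against C57. None were in BALB (4.81% of tested genes were called in either direction) or NOD (16.9%). In PWK (13.3%) Acp5 was higher and Atp6v0d2 (-1.49) and Trem2 (-1.27) lower, and in SPRET (18.1%) Cdh1 and Dcstamp were higher and Atp6v0d2 lower (-3.57). Without the 2-fold limit, limma found 3 of 8 genes to differ in BALB and 6 of 8 in NOD, and 4 and 6 had an unadjusted p below 0.05. The response differed from C57 in 8 of 32 pairs, namely 1 of 8 genes in BALB (background 1.49%), 3 in NOD (2.47%), 1 in PWK (2.26%) and 3 in SPRET (3.45%). Comparisons with C57 share the C57 libraries. The median over all tested genes lay away from 0 by over 0.1 in the basal comparisons of NOD (-0.30) and PWK (-0.16) with C57, in the BALB, NOD and SPRET responses given above, and in the response differences of NOD (0.17), PWK (0.13) and SPRET (0.16). Relative to these medians the directions of the called genes did not change, but under median-ratio scaling the Ocstamp response difference of NOD became -0.97, below 2-fold, and it was -0.74 without C57 IL-4 library 3.

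The time course showed when the genes moved. Cdh1 was called within 1 hour in C57 and SPRET, Atp6v0d2 and Ocstamp followed at 6 hours in SPRET and at 24 hours in C57. In C57 1 of 8 genes was called at 1 hour (0.703% of tested genes were called higher), 1 at 6 hours (1.56%) and 3 at 24 hours (2.85%), and in SPRET 1 (1.41%), 3 (2.81%) and 3 (2.62%). All of these calls were higher with IL-4.

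**Figure D3:**
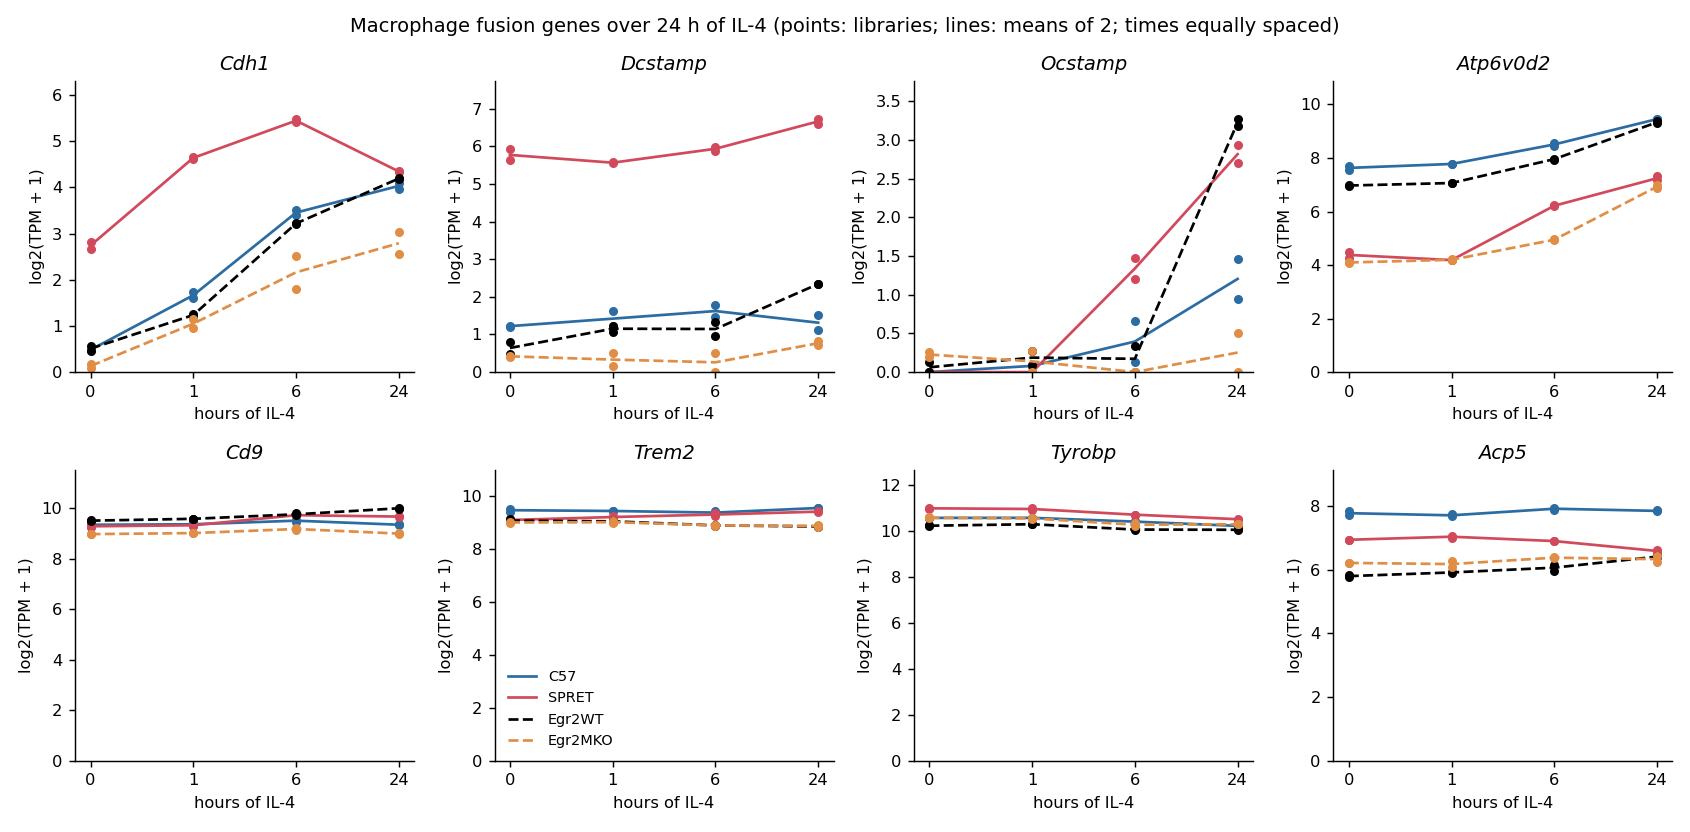
Levels as log2(TPM + 1) against hours of IL-4, equally spaced, for C57 and SPRET (solid lines) and Egr2WT and Egr2MKO (dashed lines), with 1 point per library and lines through the means of 2. Cdh1 in SPRET was highest at 6 h (41.6 and 43.7 TPM), Ocstamp rose late, and Atp6v0d2 in Egr2MKO ran below Egr2WT at all 4 times.

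Cdh1 in C57 went from 0.396 TPM in both basal libraries to 2.32 and 2.02 at 1 hour, 10.4 and 9.54 at 6 hours, and 14.7 and 16.1 at 24 hours. In SPRET it went from 6.07 and 5.33 TPM to 23.5 and 24.4, then 41.6 and 43.7, and then down to 19.3 and 19.4. No 2 of these times overlapped in either strain. The differences from basal were 1.18, 2.97 and 3.55 in C57, and in SPRET 1.90, 2.71 and, at 24 hours, 1.60, each called. The response in SPRET was larger than in C57 at 1 hour by 0.71 (adjusted p = 0.0063), was not detectably different at 6 hours (-0.27, adjusted p = 0.21), and was smaller at 24 hours (-1.95), which was called.

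Atp6v0d2 in C57 stayed near its basal 206 and 189 TPM at 1 hour (219 and 218), and then read 349 and 377 TPM at 6 hours and 702 and 699 at 24 hours. In SPRET it read 21.3 and 18.4 TPM at basal, 17.4 and 17.0 at 1 hour, 74.2 and 72.5 at 6 hours, and 158 and 144 at 24 hours. The rise at 6 hours was 0.88 in C57 and 1.84 in SPRET, and at 24 hours 1.82 and 2.87. The response at 24 hours was larger in SPRET by 1.04, which was called. That call rested on single libraries, since the difference was 0.98, 0.98 and 0.94 without C57 basal library 1, SPRET IL-4 24-hour library 1 and SPRET basal library 2. The level was lower in SPRET both at basal (-3.25) and at 24 hours (-2.21).

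Ocstamp was listed at 0 in both basal libraries of C57 and of SPRET. It reached 1 TPM in 5 of these 16 libraries, all given IL-4, and so passed the filter only through the groups in which it was high. At 6 hours it read 0.585 and 0.091 TPM in C57 and 1.30 and 1.78 in SPRET, and at 24 hours 0.922 and 1.76 in C57 and 5.50 and 6.63 in SPRET. The 24-hour rise was 1.20 ± 0.21 in C57 and 2.82 ± 0.21 in SPRET on the log2 scale, and their difference of 1.61 was called (adjusted p = 0.0016, and 0.071 with a pseudocount of 0.1). Without C57 24-hour library 2 the rise in C57 was 0.94, below 2-fold. Dcstamp was low in C57 at all times (1.16 to 2.42 TPM, adjusted p from 0.099 to 0.69). In SPRET it read 48.5 and 59.5 TPM at basal, 46.1 and 46.8 at 1 hour, 62.7 and 57.9 at 6 hours, and 105 and 96.3 at 24 hours. The 24-hour difference of 0.89 (adjusted p = 0.00072) was a rise, whereas the 24-hour difference was -0.71 in the SPRET libraries of the strain comparison. The basal means also differed, at 20.5 TPM in the strain comparison and 54.0 TPM in the time course. The 2 experiments were processed into separate tables, and neither their difference nor a difference of batch or labelling between them was tested, so that the direction of the Dcstamp response in SPRET is not settled by these data. The 5 dendritic cell markers summed to 2.98 to 3.57 TPM at basal and 7.08 to 7.83 TPM at 24 hours in SPRET here. Xcr1 was the highest at basal and Zbtb46 at 24 hours, and 2 of the markers reached 1 TPM in each of these groups. At 24 hours these were Zbtb46 and Xcr1, with Flt3, Cd209a and Siglech at 0. In SPRET in the strain comparison the markers summed to 0.749 to 0.867 and 1.43 to 1.68 TPM, again with Xcr1 the highest at basal and Zbtb46 at 24 hours. Their part in the result was not tested.

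Cd9, Trem2 and Acp5 did not pass at any time in C57 (adjusted p from 0.074 to 0.99). In SPRET, Cd9 (0.44) and Trem2 (0.21) rose by 6 hours and were up by 0.38 and 0.32 at 24 hours, when Acp5 had fallen from 122 and 121 TPM to 98.1 and 92.3 (-0.35). The rise of Acp5 with IL-4 seen in C57 in the strain comparison was 0.07 here (95% interval -0.04 to 0.18). Tyrobp fell at 24 hours in C57 (-0.35) and SPRET (-0.48). Between strains 3 of 8 genes were called at basal (18.8% of tested genes), with Cdh1 and Dcstamp higher and Atp6v0d2 lower in SPRET, the same 3 genes and directions as in the strain comparison. Basal Acp5 went the other way, being lower in SPRET than in C57 here (-0.84) and higher there (0.40). The response differed between the strains in 0 of 8 genes at 1 hour (0.811% of tested genes called by limma) and at 6 hours (2.4%), although Cdh1 at 1 hour and Atp6v0d2 and Trem2 at 6 hours had adjusted p below 0.05 and 3 and 6 genes an unadjusted p below 0.05, and in 3 of 8 at 24 hours (6.22%).

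The Egr2 experiment asked which responses depend on EGR2, a zinc-finger transcription factor induced by IL-4. Egr2 RNA was at 23.6 and 21.3 TPM in basal Egr2WT BMDMs and 0.859 and 0.854 in Egr2MKO, and at 24 hours at 101 and 99.5 against 4.72 and 7.05 TPM, so that the libraries matched their labels. Atp6v0d2 and Cd9 were lower in Egr2MKO at every time, Dcstamp from 1 hour on, Cdh1 at 6 and 24 hours and Ocstamp at 24 hours, whereas no difference was detected in Trem2 at any time. The number of the 8 genes called between genotypes was 1 at basal (0.853% of tested genes in either direction), 1 at 1 hour (1.06%), 2 at 6 hours (2.3%) and 5 at 24 hours (4.55%), and all 9 calls were lower in Egr2MKO. At 24 hours the median over the 8 genes was -1.20 and over all tested genes 0.12. Ocstamp reached 1 TPM in 2 of these 16 libraries, both Egr2WT at 24 hours, and Dcstamp in 5, also all Egr2WT, so that these genes passed the filter through Egr2WT.

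Atp6v0d2 read 126 and 123 TPM in basal Egr2WT and 15.7 and 16.5 in Egr2MKO. At 1 hour the values were 133 and 133 against 17.5 and 17.2, at 6 hours 251 and 244 against 30.4 and 29.3, and at 24 hours 630 and 659 against 126 and 116. The genotypes never overlapped, and Egr2MKO cells at 24 hours lay close to the untreated Egr2WT cells. On the log2 scale the differences were -2.88, -2.87, -3.01 and -2.40, or 7.73-, 7.66-, 8.30- and 5.33-fold by the means. The 24-hour response itself was not smaller in Egr2MKO (2.83 ± 0.05) than in Egr2WT (2.36 ± 0.05), being larger by 0.47 (adjusted p = 0.00073).

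Ocstamp, in contrast, read 8.09 and 8.66 TPM in Egr2WT at 24 hours and 0.419 and 0 in Egr2MKO, and no library of another group exceeded 0.269 TPM. The response was 3.17 ± 0.22 in Egr2WT and 0.03 ± 0.22 in Egr2MKO, a difference of -3.14 ± 0.31 (adjusted p = 5.9e-05). Dcstamp read 0.405 and 0.731 TPM at basal and 4.06 and 4.08 at 24 hours in Egr2WT, against 0.331 and 0.344 and then 0.647 and 0.761 in Egr2MKO. It rose by 1.70 in Egr2WT (adjusted p = 9.4e-05), while Egr2MKO did not pass (0.35, adjusted p = 0.30), and the difference of -1.35 was called (adjusted p = 0.014). Its adjusted p was 0.05, 0.059 and 0.052 without Egr2WT 24-hour library 1, Egr2WT basal library 1 and Egr2MKO basal library 2, and 0.27 with a pseudocount of 0.1. The level was already lower at 1 hour (-0.82, adjusted p = 0.034) and 6 hours (-0.89, adjusted p = 0.016).

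Cdh1 rose in both genotypes. It reached 1 TPM in 11 of these 16 libraries, all given IL-4, and so passed the filter only through treated groups. Egr2WT read 0.371 and 0.478 TPM at basal, 1.31 and 1.40 at 1 hour, 8.37 and 8.27 at 6 hours and 17.3 in both libraries at 24 hours. Egr2MKO read 0.126 and 0.066, 0.926 and 1.22, 4.72 and 2.50, and 4.88 and 7.14 TPM. The 24-hour rise was 3.68 in Egr2WT and 2.66 in Egr2MKO, and the level in Egr2MKO was lower at 6 hours (-1.06) and 24 hours (-1.40). The 6-hour call was lost without Egr2MKO 6-hour library 2 (-0.70), and its adjusted p was 0.18 when only the groups compared were fitted. The difference in response, -1.03 ± 0.30, had an adjusted p of 0.044, which lay above 0.05 with a replicate block (0.06) and after leaving out most single libraries (up to 0.16), and with a pseudocount of 0.1 the difference was -0.11 (adjusted p = 0.92). By ratio of means the order turned, Cdh1 being 62.6 times its basal level in Egr2MKO and 40.8 times in Egr2WT at 24 hours, so that the direction of this difference depends on the scale.

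Cd9 read 724 and 737 TPM in basal Egr2WT and 1010 and 1043 at 24 hours, and 506 and 504 and then 516 and 508 in Egr2MKO. Egr2MKO was lower at basal (-0.53) and at 24 hours (-1.002, adjusted p = 4.1e-09), the latter at the 2-fold limit and below it, at -0.98 and -0.99, without Egr2WT or Egr2MKO 24-hour library 2. It rose in Egr2WT by 0.49 and not detectably in Egr2MKO (0.02, 95% interval -0.07 to 0.11), and the responses differed (-0.47, adjusted p = 0.0002). The 250 bases before its RefSeq start are shown because Cd9 is the one gene lower in Egr2MKO for which that sequence was at hand, with capitals at the only match to the 5 motifs, the E-box CATGTG on the other strand, which begins 38 bases before the start (GRCm38.p6, minus strand).
Cd9, 250 bases before the start at 125494760 (chr6:125494761-125495010): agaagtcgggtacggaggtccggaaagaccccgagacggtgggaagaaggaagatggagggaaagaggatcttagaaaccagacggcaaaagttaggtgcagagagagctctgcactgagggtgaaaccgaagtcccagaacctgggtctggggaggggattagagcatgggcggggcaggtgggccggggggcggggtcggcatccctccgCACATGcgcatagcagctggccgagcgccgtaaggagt
The EGR motif as searched, GCGTGGG, was not in this window, which says only that these letters do not occur there.

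Trem2 differed between the genotypes by -0.07 at basal and 0.02 at 24 hours, with adjusted p from 0.36 to 1 over the 4 times and a 95% interval at 24 hours of -0.07 to 0.12. In Egr2WT it fell with 24 hours of IL-4 (-0.22, adjusted p = 0.002), whereas it rose in the 5 strains, and in Egr2MKO it did not pass (-0.13, adjusted p = 0.051). Tyrobp was higher in Egr2MKO at all 4 times, by 0.35, 0.25, 0.21 and 0.24. Acp5 was higher in Egr2MKO at basal (73.0 and 73.3 against 53.6 and 55.7 TPM, adjusted p = 0.004), 1 hour (adjusted p = 0.049) and 6 hours (0.014), and no difference was detected at 24 hours (73.9 and 85.3 against 83.6 and 84.4 TPM, adjusted p = 0.45). It rose with IL-4 by 0.61 in Egr2WT, and did not pass in Egr2MKO (0.12, adjusted p = 0.32), and the responses differed (-0.50, adjusted p = 0.011).

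Within Egr2WT, 0 of 8 genes were called at 1 hour (0.604% of tested genes higher), 1 at 6 hours (1.99%) and 4 at 24 hours (2.31%), and within Egr2MKO 0 (0.687%), 1 (2.37%) and 2 (2.76%). Among the genes called, Cdh1, Dcstamp and Ocstamp reached 1 TPM only in IL-4-treated libraries of this experiment. They could hardly have entered the test without a difference, which limits the comparison of these counts with the shares. The counts of 0 at 1 hour are by limma, and 2 genes in Egr2WT and 1 in Egr2MKO had an unadjusted p below 0.05 then. The response difference between genotypes was called in 0 of 8 genes at 1 hour (0.00828% of tested genes) and 6 hours (0.207%), with no adjusted p below 0.05 and 0 and 2 genes at an unadjusted p below 0.05, and in 3 at 24 hours (1.9%). The neutrophil marker sum was lower in Egr2MKO (40.5 to 45.3 TPM at basal and up to 16.3 at 24 hours) than in Egr2WT (62.5 to 66.1 and 19.5 to 21.9). S100a8 was the highest, 3 to 5 of the 8 markers reached 1 TPM in a group, and Ly6g was listed at 0 in 3 of these 4 groups. The sum of the 5 osteoclast markers was 298 to 304 TPM in basal Egr2MKO and 371 to 394 in Egr2WT, and 252 to 260 against 488 to 513 at 24 hours, with Ctsk the highest and Calcr at 0 in all 4 groups. Their part in the results was not tested.

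In C57xSPRET F1 BMDMs both alleles are read in the same cells. These values were made by the authors' scaling of reads that overlap strain variants, over the whole gene span, and are compared between the alleles of a library, without a test, since there were 2 libraries in each state. Because lengths were taken over the gene span, these levels cannot be set beside those of the other tables, and only the ratios between alleles are set beside those between the parents. For Dcstamp and Atp6v0d2 the allele ratios had the direction of the parental strains in all 4 libraries, and for Cdh1 at basal only.

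**Figure D4:**
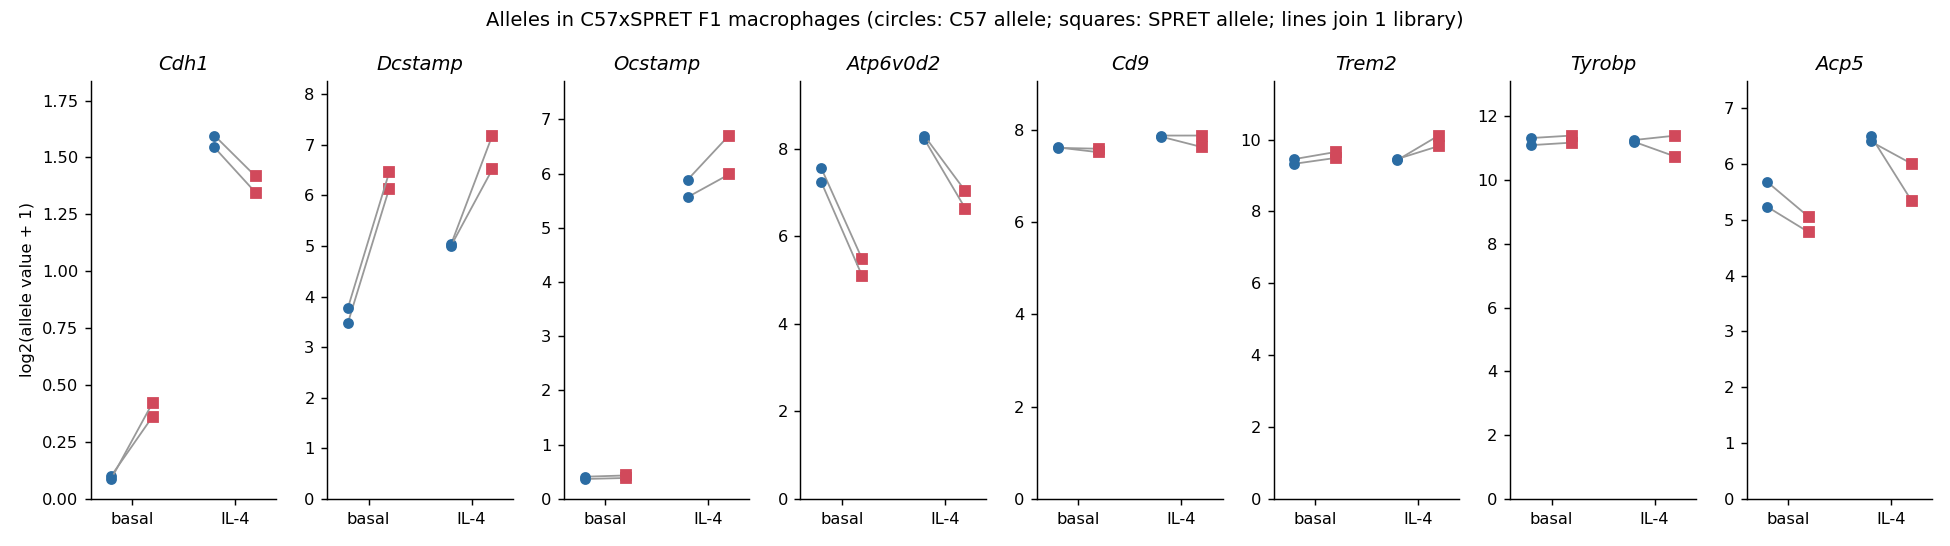
Allele values of the 8 genes in C57xSPRET F1 BMDMs as log2(value + 1), with circles for the C57 allele, squares for the SPRET allele and lines joining the alleles of 1 library. In all 4 libraries the SPRET allele of Dcstamp and the C57 allele of Atp6v0d2 were the higher ones.

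The SPRET allele of Dcstamp read 69.2 and 86.7 at basal against 10.2 and 12.7 for the C57 allele, 6.81 and 6.83 times as high. After IL-4 it read 144 and 90.4 against 31.6 and 31.1, 4.56 and 2.91 times as high. Atp6v0d2 read 188 and 150 from the C57 allele at basal and 43.2 and 32.8 from the SPRET allele, ratios of 4.35 and 4.58. After IL-4 it read 297 and 313 against 97.7 and 129, ratios of 3.04 and 2.43. In the strain comparison the parents differed 38.4-fold in Dcstamp and 14.0-fold in Atp6v0d2 at basal, and 15.1-fold and 4.81-fold after IL-4. In the time course they differed 40.5-fold and 9.94-fold at basal and 66.7-fold and 4.65-fold at 24 hours, so that the parental gap in Dcstamp was narrower after IL-4 in one experiment and wider in the other. Alleles and parents were not tested against each other.

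Cdh1 read 0.073 and 0.064 from the C57 allele at basal and 0.285 and 0.340 from the SPRET allele. After IL-4 it read 1.92 and 2.02 against 1.54 and 1.67, so that the direction turned between the states. SPRET was 3.90 and 5.31 times as high at basal and C57 1.24 and 1.21 times as high after IL-4, while the SPRET parent was 36.2 and 2.85 times as high as the C57 parent in the strain comparison and 14.4 and 1.26 times in the time course. Ocstamp had 0.328 and 0.290 at basal from the C57 allele and 0.350 and 0.307 from SPRET, and after IL-4 58.2 and 46.4 against 103 and 62.3, with SPRET higher in both libraries, whereas the higher parent after IL-4 was C57 in the strain comparison (1.91 against 0.599 TPM) and SPRET in the time course (6.07 against 1.34 TPM). Acp5 was higher from the C57 allele in all 4 libraries, by ratios of 1.38 and 1.56 at basal and 2.29 and 1.33 after IL-4, and C57 was the higher parent in the time course in both states (218 against 122 TPM at basal) and in the strain comparison after IL-4 (364 against 192 TPM), but SPRET at basal there (331 against 250.3 TPM). The alleles of Cd9 were within a ratio of 1.17, those of Trem2 read higher from SPRET in all 4 libraries by ratios of up to 1.61, and those of Tyrobp changed direction between the treated libraries (0.909 and 1.38, C57 over SPRET).

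In C57xNOD F1 BMDMs, Atp6v0d2 and Cd9 were listed at 0 for both alleles in all 4 libraries, and Ocstamp in 7 of its 8 values. Since the parental strains express Atp6v0d2 and Cd9 in every library, these zeros are not read as absence of expression. Cdh1 read 20.1 and 25.5 from the C57 allele and 15.4 and 22.8 from NOD at basal, and 51.9 and 181 against 69.0 and 170 after IL-4. These are values scaled by the authors, and only the ratios between alleles are read. In the strain comparison basal Cdh1 averaged 0.154 TPM in C57 and 0.054 TPM in NOD. After IL-4 the C57 allele was 0.752 and 1.07 times the NOD allele, while the C57 parent was 12.5 times as high as the NOD parent. Trem2 and Tyrobp were within a ratio of 1.27 between the alleles. Acp5 read higher from NOD in all 4 libraries, by ratios of 1.16 and 1.53 at basal and 1.13 and 2.29 after IL-4, as did the NOD parent. Dcstamp had 2 of its 8 values listed at 0 and no stable direction.

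Genes of the same pathways were described from lists named for the members' roles. Their counts stand beside 4.43% of all tested genes called higher and 3.39% called lower in at least 1 strain, and their medians in C57 lay between -0.21 and 0.29, against -0.04 for all tested genes. Of 13 other fusion surface proteins tested, 2 were called higher in at least 1 strain after 24 hours of IL-4, the metalloprotease gene Adam8 (4 strains, 1.45 in C57 and 0.39 in SPRET) and the scavenger receptor gene Cd36 (3 strains, 1.42 in C57 and 2.07 in SPRET), and Mmp9 was called lower in SPRET (-1.17). Of 12 osteoclast genes, 3 were called higher in at least 1 strain, namely the carbonic anhydrase gene Car2 (4 strains, 3.08 in C57 and 0.48 in SPRET), the integrin gene Itgb3 (3 strains, 1.91 in C57) and Fos, which was called higher in C57 (1.52) and lower in SPRET (-1.44). Of 20 other V-ATPase subunits, Atp6v0a1 alone was called, higher in 4 strains (2.52 in C57 and 2.85 in SPRET), and the median of the list was between 0.09 and 0.25 in the 5 strains.

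Of 15 ITAM adaptors and partners, 1 was called higher (Treml2, in SPRET) and 4 lower in at least 1 strain, led by the receptor genes Treml4 (-1.90 in C57 and -1.28 in SPRET) and Sirpb1a (-1.04 in C57). Of 15 other tetraspanins, 2 were called higher in at least 1 strain, among them Tspan5 (1.18 in C57 and 1.04 in PWK), and Cd82 was called lower in SPRET (-1.23). None of 4 catenins and none of 4 other acid phosphatases was called by limma, although all of them had an unadjusted p below 0.05 in at least 1 strain. The catenins were the only genes tested from a list of 10 cadherins and catenins, so that no other cadherin was tested. Sirpb1a belongs to a family of similar genes among which reads may be split. Between genotypes at 24 hours, 2 of 13 fusion surface proteins, 2 of 12 osteoclast genes, 0 of 18 V-ATPase subunits (10 at an unadjusted p below 0.05), 2 of 14 ITAM genes, 1 of 14 tetraspanins and 1 of 4 acid phosphatases were called lower in Egr2MKO, and 1 ITAM gene, Sirpb1a, was called higher (1.05). Of all tested genes, 2.14% were called lower and 2.42% higher in Egr2MKO at 24 hours, and the medians of the lists lay between -0.07 and 0.28, against 0.12. The osteoclast genes were Itgb3 (49.4 against 185 TPM, -1.88) and Car2 (3.94 against 13.6 TPM, -1.56), and the tetraspanin was Tspan5 (12.7 against 46.9 TPM, -1.81). The fusion surface proteins were Cd200 (-1.40) and the integrin gene Itgb2 (-1.23). The ITAM genes were Treml4 and Clec5a (both -1.05), and the acid phosphatase was Acpp (-1.89). Mmp9, Fos, Treml2 and the genes of the genotype comparison were named after their values were seen.

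Genes whose levels ran like each member were found by Pearson's r of log2(TPM + 1) over the 29 strain libraries, which share strain and treatment and are not independent. They were Tuba8 (0.98) and Klf4 (0.96) for Cdh1, Npl (0.96) and Clu (0.96) for Dcstamp, Pmepa1 (0.91) and Nrg1 (0.90) for Ocstamp, and Psap (0.94) for Atp6v0d2. For Cd9 they were Abcd2 (0.96) and St8sia4 (0.95), for Trem2 Man2b2 (0.96) and Wsb2 (0.95), for Tyrobp Mfsd6 and Lyl1 (both 0.93), and for Acp5 Dcn (0.96) and Nox3 (0.95). Among the members themselves, the r of largest size was that of Acp5 and Trem2, at -0.88, where PWK had the highest Acp5 and the lowest Trem2. Cdh1 and Atp6v0d2, the members called in most strains, had an r of 0.05.

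In the genome build mm10, Cdh1 lies on chromosome 8 (106603350 to 106670247), Dcstamp on chromosome 15 (39745930 to 39760938), Ocstamp on chromosome 2 (165395450 to 165400394), Atp6v0d2 on chromosome 4 (19876838 to 19922566), Cd9 on chromosome 6 (125460266 to 125494755), Trem2 on chromosome 17 (48346401 to 48352276) and Tyrobp on chromosome 7 (30413788 to 30417579). Outside the C57xSPRET F1 data, values were counted over exons, so that they describe spliced transcripts as a whole. For that cross, lengths were taken over the gene span. Cd9 overlaps the antisense genes Gm28809 and Gm26728, and Acp5 overlaps 6530413G14Rik on the other strand, and since the strand setting of the counting is not given in the sources used here, reads of these pairs cannot be told apart.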

How the data were processed

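RNA-seq of poly(A) RNA, sequenced as 75-base single reads, was analysed in 61 libraries of 3 tables and 8 F1 libraries. Per the methods, the authors aligned reads with STAR v2.5.3 to strain genomes built with MMARGE v1.0, shifted positions to mm10, and counted exons with HOMER v4.11.1. The deposited values are TPM, and F1 allele values are TPM that the authors scaled by the share of variant-covering reads of each allele and a constant, as described for C57xSPRET. The authors' DESeq2 columns of fold changes and p-values were not used, nor was the human table. Reads per gene were not analysed here, so that the precision at low TPM is unknown.

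Groups followed the labels. For each table, log2(TPM + 1) values entered 1 group-means model (limma 3.58.1, trended prior; R 4.3.3) over genes with at least 1 TPM in 2 libraries (11907, 12088 and 12079 genes), with Benjamini-Hochberg adjustment over all of them. Differences over 2-fold with adjusted p below 0.05 were called. Response differences were interaction contrasts. The script was tested on simulated data. Replicates are separate biological samples per the methods. The deviations of same-numbered libraries of different groups had a mean r of 0.013, 0.030 and -0.0046 in the 3 tables. Single pairs reached an r of 0.33, 0.27 and 0.057. The mean also covers pairs of different strains or genotypes, so that it cannot show whether basal and treated libraries of a strain were paired. The main model took no account of pairing.

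The 8 genes and the lists were chosen with earlier results of these data known. The genes named were the 8 members, the 2 genes most correlated with each (1 of these is not reported here), up to 2 genes per list called in most strains, and Egr2. Of 8 members, 3 had a RefSeq promoter entry, Cd9, Trem2 and Acp5. Alternatives were other pseudocounts (0.1 and 5), no filter or 5 TPM, median-ratio and quantile scaling, a robust prior, only the groups compared, a replicate block, and leaving out each library.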

Additional observations from a re-analysis of the deposited data

Results flagged for a closer look

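The response to 24 hours of IL-4 differed from that of C57 in several of the 8 genes by a test of the difference itself, with limma's adjusted p. In the strain comparison, Cdh1 responded less than in C57 in NOD (-2.43 ± 0.16 on the log2 scale, SE), PWK (-1.25) and SPRET (-1.09). Atp6v0d2 responded less in BALB (-1.18) and NOD (-1.07) and more in SPRET (1.32). Ocstamp responded less in NOD (-1.01, adjusted p = 0.0023), and Acp5 in SPRET (-1.32). Ocstamp passed the filter only through IL-4-treated libraries of C57 and PWK, so that it could hardly have entered this test without a difference.

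In the time course at 24 hours, the SPRET response was smaller than that of C57 in Cdh1 (-1.95) and larger in Ocstamp (1.61) and Atp6v0d2 (1.04). Here too Ocstamp passed the filter only through IL-4-treated libraries. For Cdh1 and Atp6v0d2 these are the directions of the strain comparison; for Ocstamp the strain comparison gave -0.75 (adjusted p = 0.016), the other direction.

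Between Egr2MKO and Egr2WT, the 24-hour response was smaller in Egr2MKO in Ocstamp (-3.14), Dcstamp (-1.35) and, on the log2(TPM + 1) scale, Cdh1 (-1.03). Ocstamp and Dcstamp passed the filter only through Egr2WT libraries, the genotype in which they were higher, so that they could hardly have entered this test without a difference. Cdh1 passed it only through IL-4-treated libraries, of both genotypes. For Cdh1 the ratio of means was larger in Egr2MKO (62.6 against 40.8), so that its direction depends on the scale.

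Dcstamp in SPRET moved in opposite directions in the 2 experiments, with every treated library on one side of every basal library: it was -0.71 in the strain comparison (basal 20.0 to 20.8 TPM) and 0.89 in the time course (basal 48.5 and 59.5 TPM). This difference, and a difference of batch or labelling between the experiments, was not tested. Neither experiment's groups were large enough, at 2 or 3 libraries, to look for single outlying libraries.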

How the results depend on the processing

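The counts of called pairs stayed within 1.5 times under most alternatives. With a pseudocount of 5, calls after 24 hours of IL-4 over the strains fell from 11 to 7, response differences from C57 from 8 to 4, and calls in the C57 time course from 5 to 3, since this scale compresses genes of low TPM; 20 of the 60 called member contrasts were lost. Under it the Cdh1 response difference of SPRET reversed to 0.10. A pseudocount of 0.1 lost 4 of the 60, quantile normalization 2, and no filter, the filter of 5 TPM, median-ratio scaling and fitting only the groups compared 1 each, and the robust prior 0. In 39 of the 60 every alternative kept the call. With the replicate block the counts stayed at 11, 6, 8, 5, 7, 5, 3 and 9, in the order response, basal, response difference, C57 and SPRET time course, Egr2WT, Egr2MKO and genotype, and 1 call was lost, the Cdh1 response difference between genotypes. Leaving out single libraries gave 10 to 11, 6 to 7, 7 to 10, 4 to 5, 7 to 8, 5 to 6, 3 to 3 and 8 to 10 in the same order, and a lone remaining library was assumed to vary like the other groups. The Ocstamp response difference of NOD was below 2-fold without C57 IL-4 library 3 (-0.74). The depth behind single TPM values is not known, which limits Ocstamp, Dcstamp outside SPRET and basal Cdh1.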
